A study of Mus musculus with 12 samples.

Results

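The collagens, laminins, nidogens and perlecan were followed across mouse gliomas and normal brain. The members are all protein-coding genes whose GENCODE M21 symbol is Col, a number, a and a number, or Lama, Lamb or Lamc with a number, together with Nid1, Nid2 and Hspg2. This gave 58 genes of the 49671 in the count table, 44 of them collagen genes, 11 laminin genes and 3 for the nidogens and perlecan. Counts were high enough to test 57. Col10a1, a collagen of cartilage, had 69 reads over all libraries and was not tested.

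RNA was sequenced from 12 mouse brain samples that had been fixed in formalin and embedded in paraffin. The 9 tumours are labelled with 3 genotypes, 3 samples each, namely IDH1_R132H (mutant isocitrate dehydrogenase 1), IDH1WT (the wild-type enzyme) and PDGFA (platelet-derived growth factor A). The tumours arose in N::TVA mice homozygous for floxed alleles that include Cdkn2a and Atrx. The 3 normal brains come from mice of the same floxed genotype labelled TVA neg. TVA is a receptor of birds through which RCAS vectors enter cells that carry it, and in this mouse line it is driven by the Nestin promoter of neural progenitors. The labels do not say whether PDGFA or Cre was also delivered to the IDH1 groups, and they give no age, sex, litter or batch. Nor do they say that each sample is a separate animal, so p-values measure the spread between these samples, which may in part be technical.

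Collagens are trimers wound from alpha chains. Fibrillar collagens build the fibres of connective tissue, while collagen IV forms the sheet-like network of basement membranes. Laminins are trimers of an alpha, a beta and a gamma chain that form a second network, and nidogens and the heparan sulphate proteoglycan perlecan (Hspg2) join the networks. In the brain, basement membrane surrounds blood vessels and lies under the pia, and fibrillar collagen is largely kept to the meninges and the walls of larger vessels.

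The total count was 6507923 to 14277395 per library. Ribosomal-RNA-like reads made up 46.2% of IDH1_R132H tumour 3 and 2.95% to 19.5% of the other libraries. Normal brains 1 and 2 were closer to each other (chi-square per gene 2.59) than either was to normal brain 3 (30.0 and 28.9). Pairs of tumours within a group had 12.3 to 347. Sampling noise alone gives about 1, but a value above it does not show that normal brains 1 and 2 are separate animals. Both were kept as samples. In PDGFA tumour 1 the summed level of oligodendrocyte precursor markers was 492 CPM, inside the range of the normal brains. Levels are CPM, read counts scaled to a common library size after TMM normalisation, which takes most genes as unchanged, and are listed in the order of replicates 1, 2 and 3, numbers that follow the order of deposit and pair no samples. A gene was called where its edgeR quasi-likelihood p, adjusted by Benjamini-Hochberg over the 17812 genes tested, was under 0.05. Gene spans are on GRCm38.

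The mean of the 3 tumour groups was first set against normal brain. Of the 57 members tested, 12 were called (21.1%), against 5.22% of all genes tested. The 11 that rose (19.3%, against 3.71% of all genes) were Col4a1, Col4a2, Lama4, Lamc1, Nid1, Nid2, Hspg2, Col5a3, Col11a1, Col16a1 and Col8a1. The single member that fell was Lamb3 (1.75%, against 1.5% of all genes). Every tumour lay above every normal brain for 11 members, which is 19.3% against 4.67% of all genes, and below for 1 (1.75%, against 2.84%). These are the called members, and the other 45 tested had tumour and normal values that overlapped. The median log2 fold change was 0.26 over the members and -0.01 over all genes, with 41 members above 0 and 16 below. Of the risers, 7 encode basement membrane components, 3 encode fibrillar or fibril-associated collagens and Col8a1 encodes a short-chain network collagen. With normal brain 1, 2 or 3 left out no member was called, and of all genes 0%, 0.00533% and 0.0159% were. The 12 kept the sign of their log2 fold change in all 19 alternative settings. In bulk tissue, fewer cells of a type and less RNA per cell cannot be told apart.

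**Figure D1:**
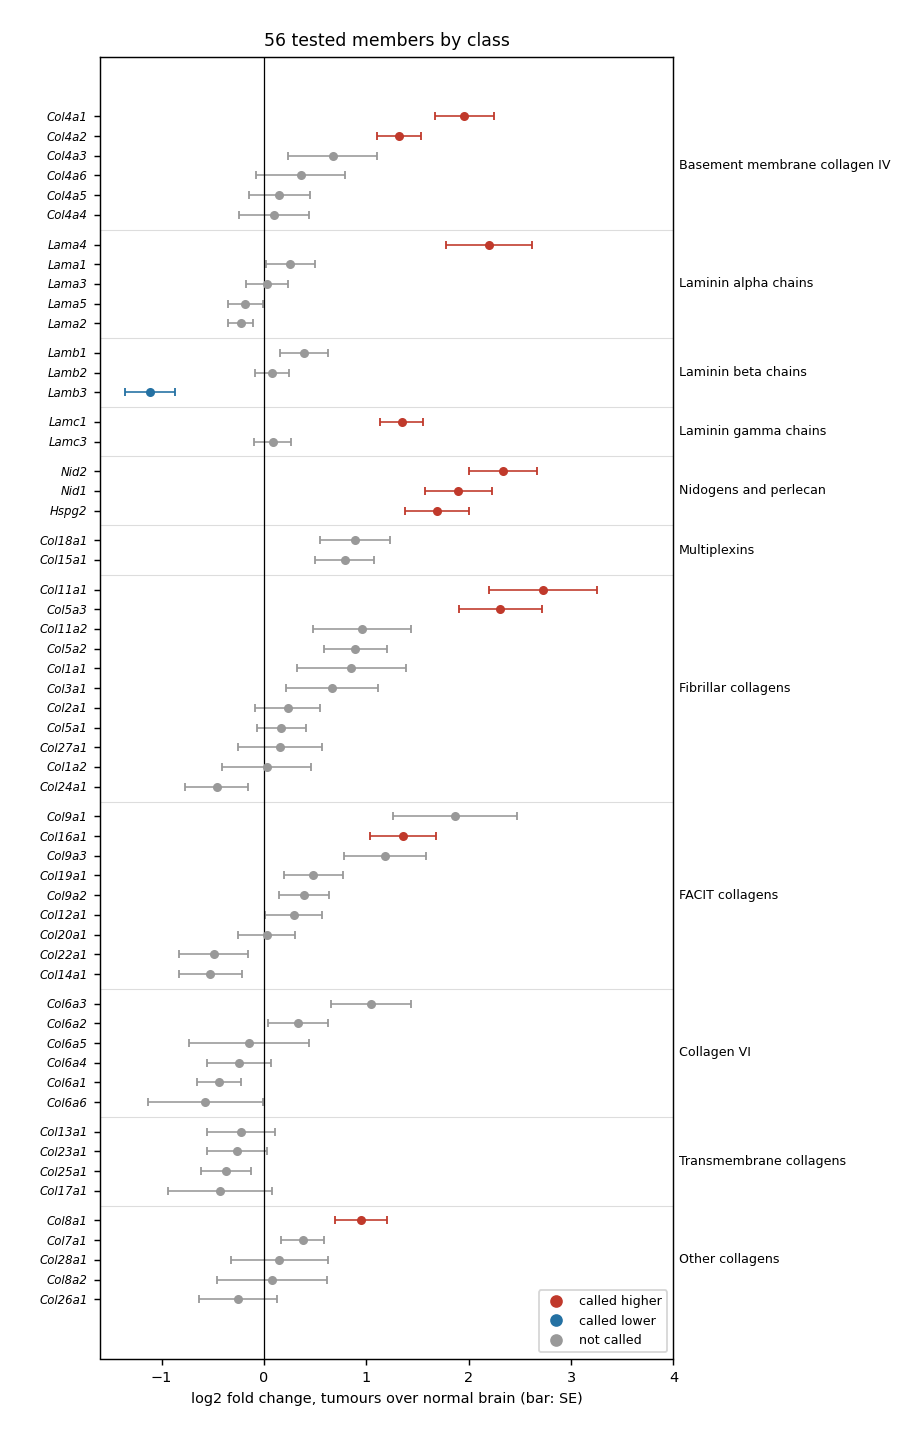
Log2 fold change of tumours over normal brain (x axis) for 56 of the 57 members tested, grouped by class, with bars for the standard error. Red points mark the 11 members called higher, the blue point Lamb3, called lower at -1.11, and grey points the 44 shown that were not called.

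Collagen IV has 6 chains, which assemble in fixed combinations. Col4a1 and Col4a2 encode the chains of the common vascular trimer, and they were the members called in this class (2 of 6). Col4a1 (ENSMUSG00000031502, chromosome 8, 11198423 to 11312826, minus strand) had 189, 281 and 260 CPM in IDH1_R132H tumours, 197, 367 and 387 in IDH1WT and 125, 96.5 and 218 in PDGFA tumours, against 52.2, 59.1 and 61.8 in normal brain. All 9 tumours exceeded the normal brains, PDGFA tumour 2 by the least. This was a log2 fold change of 1.96, which is 3.89-fold (SE 0.29, edgeR adjusted p = 0.0113). Col4a2 (ENSMUSG00000031503, chromosome 8, 11312805 to 11449287, plus strand) had 126, 181 and 177 CPM in IDH1_R132H tumours, 126, 196 and 225 in IDH1WT and 111, 78.0 and 135 in PDGFA tumours, against 60.4, 60.4 and 56.1 in normal brain. Its groups did not overlap either, with PDGFA tumour 2 lowest of the tumours and IDH1WT tumour 3 highest, as for Col4a1. Its log2 fold change was 1.32 (SE 0.21, edgeR adjusted p = 0.0151). Col4a3 to Col4a6, the chains of the kidney, eye and smooth muscle networks, averaged 3.01 to 9.96 CPM in tumours and 1.90 to 9.0 CPM in normal brain. Their log2 fold changes were 0.10 to 0.67, none was called, and each had overlapping groups.

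Col4a1 and Col4a2 lie head to head on opposite strands, with start sites 21 bases apart at 11312826 and 11312805. Their promoter windows, 250 bases before to 50 after the start, share 78 bases. They are printed here because both genes were called and stand on one shared stretch of DNA. Sequences are from RefSeq on GRCm38.p6, at chr8:11312777-11313076 (minus strand) for Col4a1 and chr8:11312555-11312854 (plus strand) for Col4a2, each 5′ to 3′ on its gene's strand. Capitals mark matches on either strand to the GC box GGGCGG, the CCAAT box CCAAT or the TATA box TATAAA.
Col4a1: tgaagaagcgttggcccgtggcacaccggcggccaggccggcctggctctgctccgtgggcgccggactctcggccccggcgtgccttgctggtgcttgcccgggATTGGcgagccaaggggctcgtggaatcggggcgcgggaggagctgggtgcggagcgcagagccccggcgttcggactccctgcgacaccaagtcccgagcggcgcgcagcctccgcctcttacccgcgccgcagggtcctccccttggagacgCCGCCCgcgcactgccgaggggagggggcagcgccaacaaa
Col4a2: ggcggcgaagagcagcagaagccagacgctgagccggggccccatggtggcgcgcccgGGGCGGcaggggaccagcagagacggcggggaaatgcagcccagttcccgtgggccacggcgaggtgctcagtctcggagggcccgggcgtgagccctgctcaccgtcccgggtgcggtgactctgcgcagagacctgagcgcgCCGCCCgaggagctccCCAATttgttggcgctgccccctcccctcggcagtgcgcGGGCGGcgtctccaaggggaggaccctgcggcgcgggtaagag
The Col4a1 window held 1 GC box and 1 CCAAT box, and the Col4a2 window 3 GC boxes and 1 CCAAT box. The GC box at chromosome 8, 11312812 to 11312817, lies in both windows. No TATA box was found in either. Of all 32851 promoter windows in the table, 35.7% held a GC box, 37.4% a CCAAT box and 13.6% a TATA box. The 46 windows of the 42 members in the table held them in 60.9%, 32.6% and 10.9%. These are matches of letters and show no binding. Exons of the 2 genes overlap by 22 bases, 0.295% and 0.332% of their lengths, and the strand setting of the counting is not given in the sources used here.

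The Col4a1 to Col4a2 ratio within a library does not depend on library scaling. As a log2 ratio of counts it was 0.59, 0.63 and 0.56 in IDH1_R132H tumours, 0.64, 0.90 and 0.78 in IDH1WT and 0.17, 0.31 and 0.69 in PDGFA tumours, against -0.21, -0.03 and 0.14 in normal brain. All 9 tumours lay above the highest normal brain, PDGFA tumour 1 only just. The mean was 0.59 ± 0.23 in tumours (SD, n = 9) and -0.03 ± 0.17 in normal brain (SD, n = 3), a difference of 0.62. The exact two-sided permutation p was 0.00909, the smallest that 220 splits can give, and 0.0182 adjusted over the 4 chain ratios tested. In counts the ratio was 1.54-fold higher in tumours.

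**Figure D2:**
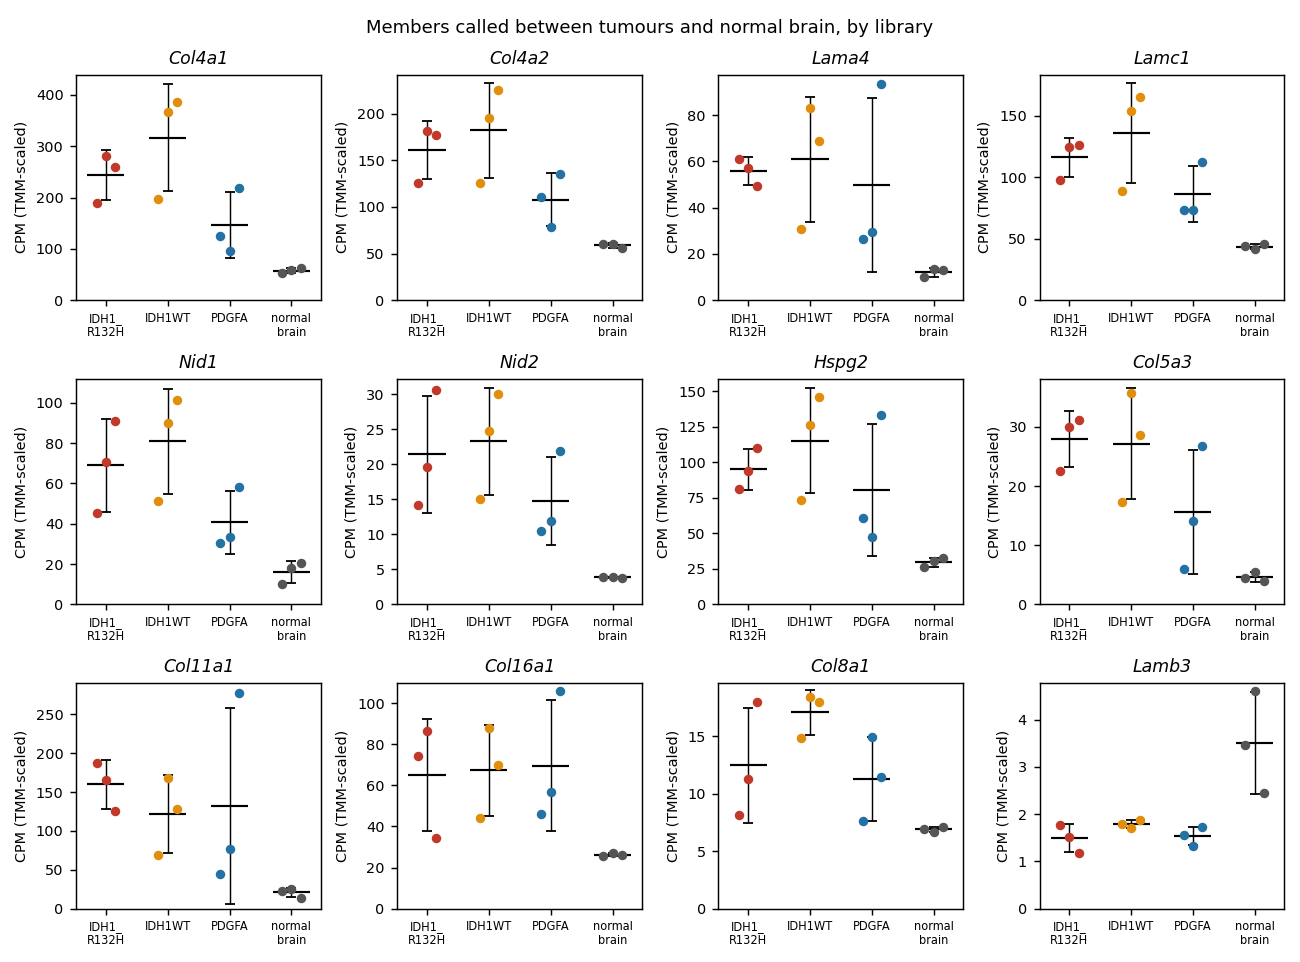
Level in CPM (y axis, from 0) of the 12 members called between tumours and normal brain, 1 point per library, with a line for the group mean and bars for the SD (n = 3). For each of the 11 risers the 9 tumours sit above the 3 normal brains, and for Lamb3 the tumours, at 1.18 to 1.88 CPM, sit below the normal brains at 2.45 to 4.61 CPM.

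All 3 linkers of the basement membrane networks rose. Nid1 (ENSMUSG00000005397, chromosome 13, 13437551 to 13512269), nidogen 1, had 45.1, 70.5 and 91.0 CPM in IDH1_R132H tumours, 51.4, 89.8 and 101 in IDH1WT and 30.2, 33.3 and 58.3 in PDGFA tumours, against 10.2, 18 and 20.6 in normal brain. The groups were separate, with PDGFA tumours 1 and 2 nearest to normal brain. Its log2 fold change was 1.90 (SE 0.33, edgeR adjusted p = 0.0157). Nid2 (ENSMUSG00000021806, chromosome 14, 19751265 to 19811787), nidogen 2, had 14.2, 19.6 and 30.6 CPM in IDH1_R132H tumours, 15, 24.8 and 30.0 in IDH1WT and 10.5, 11.9 and 21.9 in PDGFA tumours, against 3.93, 3.84 and 3.76 in normal brain. The normal brains were nearly equal and every tumour was well above them. Nid2 had the smallest p of the members, and its log2 fold change was 2.33 (SE 0.33, 5.04-fold, edgeR adjusted p = 0.0109). Its exons share 8.45% of their bases with Rtraf on the other strand, the most of any member, and without the strand setting the gene that took the reads of that stretch is not known. Hspg2 (ENSMUSG00000028763, chromosome 4, 137468769 to 137570630) had 81.4, 94.0 and 110 CPM in IDH1_R132H tumours, 73.7, 126 and 146 in IDH1WT and 60.5, 47.1 and 133 in PDGFA tumours, against 26.2, 30.4 and 32.4 in normal brain. Tumour and normal values did not overlap, and IDH1WT tumour 3 was highest. The log2 fold change of Hspg2 was 1.69 (SE 0.31, edgeR adjusted p = 0.0173).

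The promoter windows of Nid1 (chr13:13437352-13437651, plus strand) and Hspg2 (chr4:137468553-137468852, plus strand) are shown because both genes rose with collagen IV, with the same boxes in capitals.
Nid1: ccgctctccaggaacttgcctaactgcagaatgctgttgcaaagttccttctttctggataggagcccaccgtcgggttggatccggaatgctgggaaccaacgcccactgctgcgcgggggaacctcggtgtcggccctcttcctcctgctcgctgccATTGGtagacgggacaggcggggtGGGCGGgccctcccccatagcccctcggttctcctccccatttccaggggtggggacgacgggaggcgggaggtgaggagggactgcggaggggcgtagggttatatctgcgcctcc
Hspg2: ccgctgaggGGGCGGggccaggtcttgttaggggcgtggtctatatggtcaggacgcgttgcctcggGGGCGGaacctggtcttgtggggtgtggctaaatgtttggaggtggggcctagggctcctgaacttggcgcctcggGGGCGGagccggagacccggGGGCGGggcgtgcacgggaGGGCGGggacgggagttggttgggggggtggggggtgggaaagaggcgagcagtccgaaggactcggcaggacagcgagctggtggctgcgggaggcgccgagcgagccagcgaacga
Nid1 held 1 GC box and 1 CCAAT box, and Hspg2 held 5 GC boxes and no CCAAT box. Neither held a TATA box.

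Laminin alpha chains give each trimer its receptor binding. Lama4 (ENSMUSG00000019846, chromosome 10, 38965515 to 39110188), the alpha chain of endothelial laminin, was the 1 called of 5. It had 60.9, 57.2 and 49.1 CPM in IDH1_R132H tumours, 30.9, 82.9 and 68.7 in IDH1WT and 26.6, 29.3 and 93.3 in PDGFA tumours, against 9.82, 13.3 and 13 in normal brain. All tumours were above normal brain, with 30.9 CPM or less in IDH1WT tumour 1 and PDGFA tumours 1 and 2. Its log2 fold change was 2.19 (SE 0.42, 4.58-fold, edgeR adjusted p = 0.0183). Lama5, the alpha chain of the laminin of mature vessels, had 18, 15.9 and 18.7 CPM in IDH1_R132H tumours, 23.7, 12.8 and 24.5 in IDH1WT and 20.9, 21 and 22.2 in PDGFA tumours, against 21.1, 22.9 and 22.9 in normal brain. These values overlapped, with a fitted log2 difference of -0.18 (SE 0.17, edgeR adjusted p = 0.559). Lama2, the chain of a laminin made by astrocytes and pericytes, had 21.5, 24.3 and 26.8 CPM in IDH1_R132H tumours, 31.3, 31.5 and 32.0 in IDH1WT and 16, 18.1 and 19.4 in PDGFA tumours, against 29.7, 24.6 and 29.6 in normal brain. Here the tumour groups were in separate ranges, IDH1WT above normal brain and PDGFA below it, and the mean over tumours was not called (log2 fold change -0.23, SE 0.12, edgeR adjusted p = 0.277). Lama1, a chain of the pial membrane, had 9.13, 11.9 and 13.6 CPM in IDH1_R132H tumours, 11.4, 13.3 and 12.6 in IDH1WT and 7.71, 12.4 and 16.7 in PDGFA tumours, against 13.6, 8.01 and 8.66 in normal brain. Its values overlapped, and its log2 fold change was 0.26 (SE 0.24, edgeR adjusted p = 0.551). Lama3, an epithelial chain, averaged 9.92 CPM in tumours and 9.69 CPM in normal brain and was not called.

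Lama4 and Lama5 are alternative chains of vascular laminin, so their ratio was taken within each library. The log2 ratio of Lama4 to Lama5 counts was 1.76, 1.85 and 1.39 in IDH1_R132H tumours, 0.39, 2.69 and 1.49 in IDH1WT and 0.35, 0.48 and 2.07 in PDGFA tumours, against -1.10, -0.79 and -0.81 in normal brain. Lama4 had more reads than Lama5 in all 9 tumours and fewer in all 3 normal brains. The mean was 1.38 ± 0.82 in tumours (SD, n = 9) and -0.90 ± 0.18 in normal brain (SD, n = 3). The difference of 2.28, a 4.87-fold shift, had an exact two-sided permutation p of 0.00909, or 0.0182 adjusted over the 4 ratios. With a normal brain left out the adjusted p was 0.0727 for this ratio and for Col4a1 over Col4a2, since fewer splits remain.

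**Figure D3:**
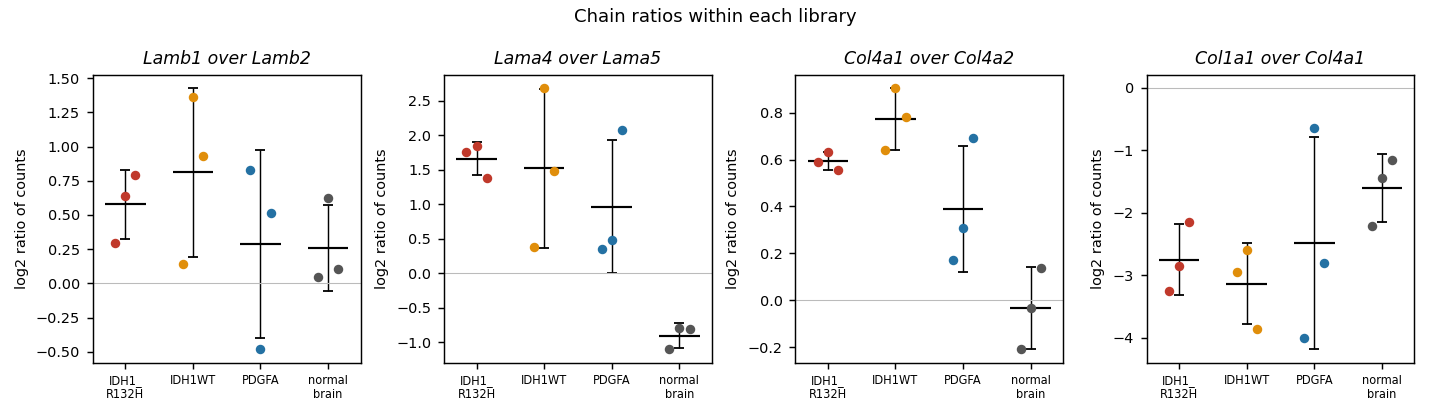
Log2 ratio of counts (y axis) of 4 chain pairs in each library, with lines for group means and bars for the SD (n = 3). Lama4 over Lama5 and Col4a1 over Col4a2 are higher in all 9 tumours than in the 3 normal brains, while for Lamb1 over Lamb2 and Col1a1 over Col4a1 the groups overlap.

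Of the laminin beta chains, 1 of 3 was called. Lamb1, a beta chain of vascular and pial laminins, had 26.2, 36.9 and 45.6 CPM in IDH1_R132H tumours, 35.7, 52.4 and 57.1 in IDH1WT and 34.3, 20.2 and 39.6 in PDGFA tumours, against 24.1, 34.5 and 28.4 in normal brain. Its groups overlapped (log2 fold change 0.39, SE 0.23, edgeR adjusted p = 0.332). Lamb2, the other vascular beta chain, had 21.3, 23.7 and 26.2 CPM in IDH1_R132H tumours, 32.3, 20.4 and 29.9 in IDH1WT and 19.3, 28.3 and 27.6 in PDGFA tumours, against 23.3, 22.4 and 26.3 in normal brain. It overlapped too (log2 fold change 0.08, SE 0.17, edgeR adjusted p = 0.81). The log2 ratio of Lamb1 to Lamb2 averaged 0.56 ± 0.53 in tumours (SD, n = 9) and 0.26 ± 0.32 in normal brain (SD, n = 3), with 5 of 9 tumours above the highest normal brain. The difference of 0.30 had an exact permutation p of 0.364, also after adjustment. Lamb3 (ENSMUSG00000026639, chromosome 1, 193207699 to 193343878), the beta chain of an epithelial laminin, had 1.77, 1.53 and 1.18 CPM in IDH1_R132H tumours, 1.79, 1.71 and 1.88 in IDH1WT and 1.57, 1.33 and 1.72 in PDGFA tumours, against 3.46, 4.61 and 2.45 in normal brain. It was among the scarcest members, ranked 52 of 58 per kilobase in tumours, and all tumours were below all normal brains. For Lamb3 the log2 fold change was -1.11 (SE 0.25, edgeR adjusted p = 0.0279), and without IDH1_R132H tumour 2 it was not called (edgeR adjusted p = 0.0544).

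The gamma chain shared by most laminins is Lamc1 (ENSMUSG00000026478, chromosome 1, 153218922 to 153332786). It had 97.6, 125 and 126 CPM in IDH1_R132H tumours, 89.1, 153 and 165 in IDH1WT and 73.6, 72.9 and 112 in PDGFA tumours, against 43.7, 41.4 and 45.6 in normal brain. Every tumour was above every normal brain, by the least in PDGFA tumours 1 and 2. For Lamc1 the log2 fold change was 1.35 (SE 0.21, 2.54-fold, edgeR adjusted p = 0.0125). Lamc3, another gamma chain, averaged 9.94 CPM in tumours and 9.26 CPM in normal brain, with a log2 fold change of 0.09 and no call. Of the chain genes of endothelial laminin, Lama4 and Lamc1 were called and Lamb1 was not.

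Col15a1 and Col18a1, the multiplexins, carry heparan or chondroitin sulphate chains, and the end of the Col18a1 protein is released as endostatin. Col18a1 had 30.7, 32.1 and 28.4 CPM in IDH1_R132H tumours, 26.8, 67.8 and 62.3 in IDH1WT and 34.9, 18.5 and 63.4 in PDGFA tumours, against 18.8, 23.2 and 22 in normal brain. Of the tumours 8 were above the highest normal brain and PDGFA tumour 2 was below the lowest, and the gene was not called (log2 fold change 0.89, SE 0.34, edgeR adjusted p = 0.134). Col15a1 had 8.45, 16.3 and 10.7 CPM in IDH1_R132H tumours, 9.01, 19.999 and 22.7 in IDH1WT and 11.4, 9.45 and 11.5 in PDGFA tumours, against 6.01, 9.11 and 7.44 in normal brain. IDH1_R132H tumour 1 and IDH1WT tumour 1 were inside the normal range (log2 fold change 0.79, SE 0.29, edgeR adjusted p = 0.123). Without IDH1WT tumour 1, Col15a1 was called (edgeR adjusted p = 0.04), and DESeq2 called Col18a1 (adjusted p = 0.0497).

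Of the fibrillar collagens Col11a1 and Col5a3 rose (2 of 11). The type I and III collagens that make up most fibres had overlapping groups and were not called, which does not show them unchanged. Col11a1 (ENSMUSG00000027966, chromosome 3, 114030540 to 114220718), which nucleates fibrils in cartilage, had 188, 166 and 126 CPM in IDH1_R132H tumours, 68.5, 169 and 128 in IDH1WT and 44.0, 76.4 and 277 in PDGFA tumours, against 23.1, 25 and 14.2 in normal brain. The PDGFA tumours alone spanned the whole range of the tumours, and PDGFA tumour 1 was nearest to normal brain. Col11a1 had the highest log2 fold change of the 57 members in this fit, 2.73 (SE 0.53, 6.61-fold, edgeR adjusted p = 0.0191). Col5a3 (ENSMUSG00000004098, chromosome 9, 20770050 to 20815067), a chain of collagen V, had 22.5, 30.0 and 31.2 CPM in IDH1_R132H tumours, 17.2, 35.7 and 28.6 in IDH1WT and 5.93, 14.2 and 26.8 in PDGFA tumours, against 4.39, 5.49 and 3.94 in normal brain. The groups were separate, though PDGFA tumour 1 lay just above the highest normal brain. Its log2 fold change was 2.31 (SE 0.41, 4.95-fold, edgeR adjusted p = 0.0161).

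The Col11a1 promoter window (chr3:114030290-114030589, plus strand) is shown as that of the member with the highest fold change, marked as above.
Col11a1: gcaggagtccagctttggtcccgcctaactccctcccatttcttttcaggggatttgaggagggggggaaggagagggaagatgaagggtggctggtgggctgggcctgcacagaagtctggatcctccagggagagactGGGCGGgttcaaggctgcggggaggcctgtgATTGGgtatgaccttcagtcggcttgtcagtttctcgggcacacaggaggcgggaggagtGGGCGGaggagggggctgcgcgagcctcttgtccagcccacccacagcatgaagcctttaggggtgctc
It held 2 GC boxes, 1 CCAAT box and no TATA box.

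Col1a1, which makes up most of the type I trimer, had 19.8, 38.7 and 58.8 CPM in IDH1_R132H tumours, 25.4, 60.2 and 26.6 in IDH1WT and 7.71, 61.7 and 31.1 in PDGFA tumours, against 11.2, 21.6 and 27.6 in normal brain. PDGFA tumour 1 was below every normal brain and PDGFA tumour 2 above every other library. In the fit the log2 fold change of Col1a1 was 0.85 (SE 0.53, edgeR adjusted p = 0.353). Col1a2, its partner chain, had 24.8, 37.4 and 47.0 CPM in IDH1_R132H tumours, 40.1, 45.6 and 21.2 in IDH1WT and 10.4, 72.4 and 34.8 in PDGFA tumours, against 24.8, 30.6 and 53.5 in normal brain. The same PDGFA libraries held its lowest and highest values. Its log2 fold change was 0.03 (SE 0.44, edgeR adjusted p = 0.98), of no settled sign across settings. Col3a1, the type III chain of vessel walls and meninges, had 29.6, 47.8 and 39.1 CPM in IDH1_R132H tumours, 33.5, 56.3 and 44.2 in IDH1WT and 12.7, 81.7 and 36.1 in PDGFA tumours, against 12.7, 28.9 and 38.3 in normal brain. Col3a1 too overlapped (log2 fold change 0.66, SE 0.45, edgeR adjusted p = 0.398). With no low count filter edgeR called Col1a1 (adjusted p = 0.00432) and Col3a1 (adjusted p = 0.0470) higher. That fit called 5.19% of 42503 genes, many more genes than were tested in the main fit. Limma voom with sample weights called Col3a1 higher (adjusted p = 0.0358), against 33.7% of all genes called. The summed level of 11 meningeal and perivascular fibroblast markers was 55.6 CPM in PDGFA tumour 1 and 270 CPM in PDGFA tumour 2, the lowest and highest of the 12 libraries, and its part in these values was not tested.

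Set against collagen IV within each library, the log2 ratio of Col1a1 to Col4a1 was -3.25, -2.86 and -2.14 in IDH1_R132H tumours, -2.95, -2.60 and -3.86 in IDH1WT and -4.01, -0.65 and -2.81 in PDGFA tumours, against -2.21, -1.45 and -1.16 in normal brain. Of the 9 tumours 7 were below the lowest normal brain, and PDGFA tumour 2 was above the highest. The mean was -2.79 ± 0.99 in tumours (SD, n = 9) and -1.61 ± 0.54 in normal brain (SD, n = 3), and the difference of -1.18 was not beyond that spread (exact two-sided permutation p = 0.109, adjusted 0.145). Without PDGFA tumour 2 it was -1.45, with an adjusted p of 0.0323. The other 6 fibrillar collagens averaged 3.39 to 42.3 CPM in tumours and 2.79 to 31.4 CPM in normal brain, with log2 fold changes of -0.46 to 0.96 and no call.

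The fibril-associated collagens sit on the surface of fibrils or at their borders with basement membranes. Col16a1 (ENSMUSG00000040690, chromosome 4, 130047840 to 130099283) was the 1 called of 9. It had 74.1, 86.7 and 34.3 CPM in IDH1_R132H tumours, 44.2, 88.0 and 69.7 in IDH1WT and 46.1, 56.8 and 106 in PDGFA tumours, against 25.5, 27.1 and 26.2 in normal brain. All tumours were higher, IDH1_R132H tumour 3 by the least. The log2 fold change was 1.36 (SE 0.32, edgeR adjusted p = 0.0344), and the adjusted p was 0.0527, 0.0602 and 0.0541 without IDH1_R132H tumour 1, IDH1_R132H tumour 2 and IDH1WT tumour 3. The other 8 ranged over log2 fold changes of -0.52 to 1.86, the highest being Col9a1, at 2.42 CPM in tumours and 0.596 CPM in normal brain (SE 0.61, edgeR adjusted p = 0.0882). DESeq2 called 17 members between tumours and normal brain, against 12.5% of all genes under that tool. The 5 it added, all higher, were Col9a1, Col9a3, Col5a2, Col6a3 and Col18a1.

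Collagen VI forms beaded filaments next to basement membranes, and none of its 6 chains was called. Col6a1 had 15.1, 27.2 and 25.7 CPM in IDH1_R132H tumours, 18, 16.6 and 28.6 in IDH1WT and 29.2, 49.2 and 43.7 in PDGFA tumours, against 38.0, 38.0 and 33.4 in normal brain. All 6 tumours of the IDH1 genotypes were below the normal brains, while PDGFA tumours lay on both sides. The log2 fold change over tumours was -0.44 (SE 0.21, edgeR adjusted p = 0.237). The other 5 chains had log2 fold changes of -0.57 to 1.05. The 4 transmembrane collagens, among them Col25a1 of neurons, averaged 1.12 to 64.6 CPM in tumours and 1.48 to 82.7 CPM in normal brain, with log2 fold changes of -0.43 to -0.22 and no call. Col8a1 (ENSMUSG00000068196, chromosome 16, 57624258 to 57754737), a short-chain collagen of vascular walls, had 8.18, 11.3 and 18 CPM in IDH1_R132H tumours, 14.8, 18.4 and 18 in IDH1WT and 7.60, 14.9 and 11.4 in PDGFA tumours, against 6.93, 6.70 and 7.09 in normal brain. Every tumour was above normal brain, PDGFA tumour 1 and IDH1_R132H tumour 1 narrowly. The log2 fold change was 0.95 (SE 0.25), with an edgeR adjusted p of 0.0494 that lay above 0.05 when IDH1_R132H tumour 2, PDGFA tumour 2 or 3, or IDH1WT tumour 2 or 3 was left out (0.0581 to 0.0829).

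**Figure D4:**
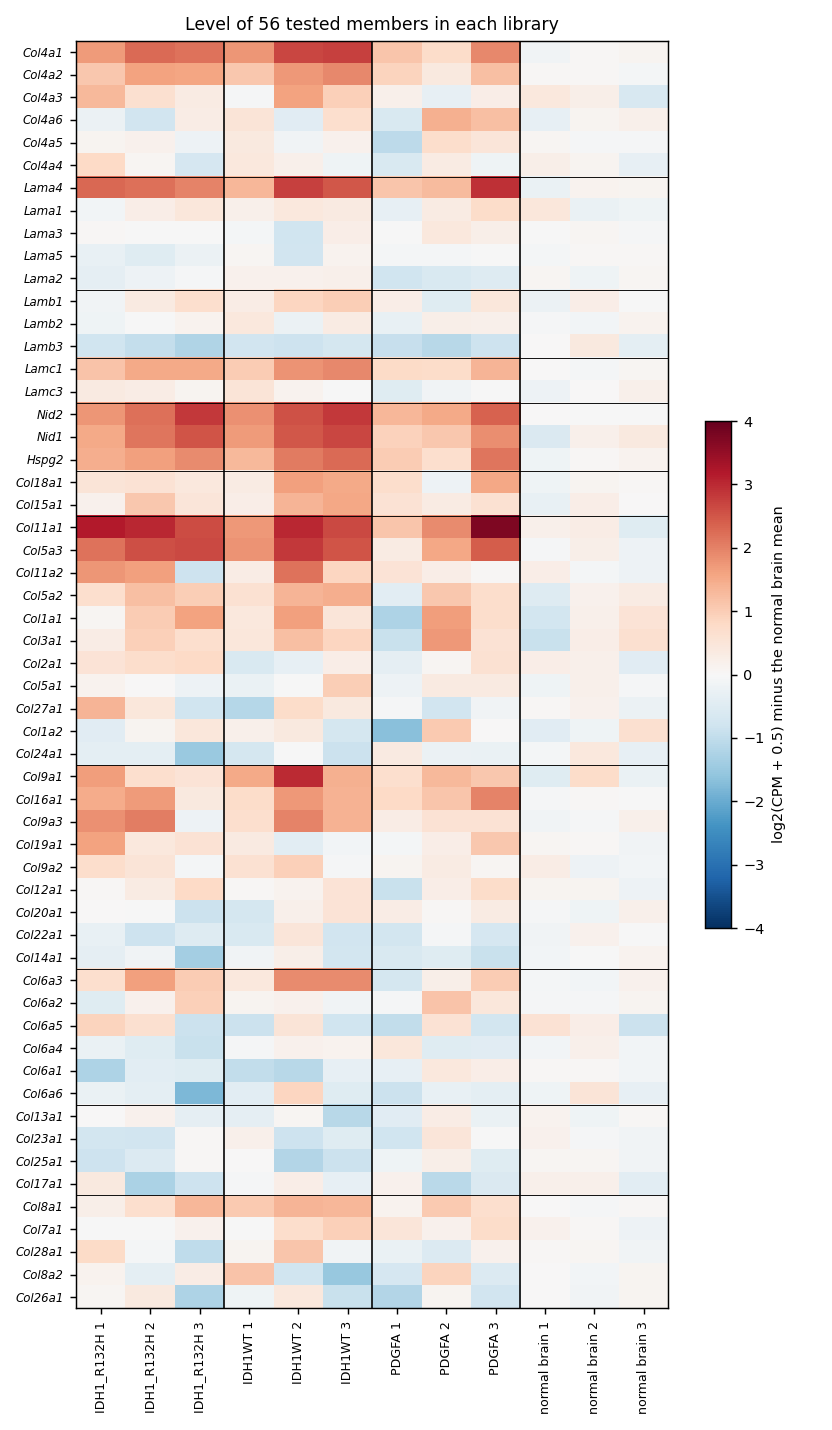
Log2 of CPM + 0.5, less the mean of the 3 normal brains, for 56 of the 57 tested members (rows, by class) in each of the 12 libraries (columns, tumours left of normal brain). The 11 risers are above 0 in all 9 tumours and Lamb3 is below 0 in all 9, while rows such as Col1a1 and Col6a1 hold tumours on both sides.

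Levels of different genes were compared per kilobase of exon. In the mean of the 9 tumours Col4a1 ranked 1 of 58 at 31.6 ± 13.3 CPM per kilobase (SD, n = 9), before Col4a2 at 22.7 ± 7.08, Lamc1 at 13.6, Col11a1 at 10.8 ± 5.63 and Col16a1 at 9.97. With SDs of this size the places after Lamc1 are not set apart. In normal brain Col4a2 ranked 1 at 8.91 CPM per kilobase, before Col6a1 at 8.33, Col4a1 at 7.73 and Col25a1 at 6.39. Col11a1 ranked 4 in IDH1_R132H, 6 in IDH1WT and 4 in PDGFA tumours, against 23 in normal brain, and Lama4 ranked 14, 13 and 16 in those tumour groups, against 34 in normal brain. In normal brain the SDs were 0.374 CPM per kilobase for Col4a2, 0.600 for Col6a1, 0.662 for Col4a1 and 0.552 for Col25a1 (n = 3). The order of these places was not tested.

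Each tumour group was then set against the same 3 normal brains, so these comparisons share their controls. In IDH1_R132H tumours 9 members rose (15.8%, against 4.83% of all genes), namely Col4a1, Col4a2, Lama4, Lamc1, Nid1, Nid2, Hspg2, Col5a3 and Col11a1. Lamb3 fell (1.75%, against 2.35%), and the 10 calls compare with 7.17% of all genes. In IDH1WT tumours 10 rose (17.5%, against 1.57% of all genes and 1.72% called either way), namely Col4a1, Col4a2, Lama4, Lamc1, Nid1, Nid2, Hspg2, Col5a3, Col11a1 and Col8a1. None of the members fell in IDH1WT tumours (0.152% of all genes did). In PDGFA tumours edgeR called 0 of 57, against 0.303% of all genes (0.258% higher and 0.0449% lower), with 14 members at an unadjusted p under 0.05 (10.6% of all genes were). All 3 libraries lay above all normal brains for 16 members in IDH1_R132H tumours (19.4% of all genes), 19 in IDH1WT tumours (17.4%) and 14 in PDGFA tumours (8.23%). They lay below all normal brains for 7 members in IDH1_R132H tumours (18.8% of all genes), 2 in IDH1WT tumours (14.5%) and 3 in PDGFA tumours (7.54%).

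The sizes stood side by side as follows. Col4a1 had log2 fold changes of 2.08 in IDH1_R132H (SE 0.32), 2.46 in IDH1WT (SE 0.32) and 1.34 in PDGFA tumours (SE 0.31), with edgeR adjusted p-values of 0.0128, 0.0221 and 0.0988. Nid2 had 2.47, 2.59 and 1.94 (SE 0.37 each), with edgeR adjusted p-values of 0.0124, 0.0221 and 0.0507, so that in PDGFA tumours it missed the threshold by little. Lama4 had 2.21 (SE 0.47), 2.33 (SE 0.47) and 2.04 (SE 0.46), with edgeR adjusted p-values of 0.0212, 0.0333 and 0.0896. Col11a1 had 2.95 (SE 0.58), 2.55 (SE 0.57) and 2.68 (SE 0.58), with edgeR adjusted p-values of 0.0193, 0.047 and 0.0743. A call in one group and none in another does not show that the groups differ, and that difference was tested directly between tumour groups.

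Single libraries decided these counts, for all genes as well as for the members. In IDH1_R132H and IDH1WT tumours none of the members was called without any 1 normal brain. The same held without IDH1_R132H tumour 2 for the first and without IDH1WT tumour 2 or 3 for the second. In each of these fits at most 0.00532% of all genes was called. In PDGFA tumours 9 members were called without PDGFA tumour 1 (against 4.4% of all genes), which had the lowest tumour value for 6 of the 11 risers. DESeq2 called 11 members there on all libraries (against 2.45% of all genes), 10 higher and Lama2 lower (log2 fold change -0.64, DESeq2 adjusted p = 0.00904). For PDGFA tumours limma on the deposited rlog values called 0 members and 0% of all genes.

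Between tumour groups no member and no other gene was called in the main edgeR fit (0% of the genes tested in each of the 3 pairs). At an unadjusted p under 0.05 there were 4 members in IDH1_R132H against IDH1WT (2.67% of all genes), 8 in IDH1_R132H against PDGFA (10.9%) and 9 in IDH1WT against PDGFA (5.83%). All libraries of IDH1_R132H lay above all of IDH1WT for 2 members (2.96% of all genes) and below for 2 (3.79%). For IDH1_R132H over PDGFA the counts were 4 above (5.86%) and 5 below (7.25%), and for IDH1WT over PDGFA 3 above (4.32%) and 1 below (4%). The median log2 fold change of the members was -0.16, 0.16 and 0.29 in these pairs, against -0.0038, -0.0088 and -0.011 over all genes. Lama2 had the smallest p, with 31.3 to 32.0 CPM in IDH1WT and 16 to 19.4 CPM in PDGFA tumours. Its log2 fold change of IDH1WT over PDGFA was 0.83 (SE 0.15, edgeR unadjusted p = 0.000119, adjusted p = 0.623). It was the 1 member that DESeq2 called between tumour groups (log2 fold change 0.81, DESeq2 adjusted p = 0.00213). Col6a1 was lower in IDH1WT than in PDGFA tumours by point estimate (log2 fold change -0.95, SE 0.27, edgeR adjusted p = 0.808), and Col4a1 higher (1.11, SE 0.31, edgeR adjusted p = 0.808). With no low count filter edgeR called Col6a1 (adjusted p = 0.0125) and Col4a1 (adjusted p = 0.00782) among 5 members, against 0.614% of 42503 genes. Limma voom with sample weights called Col4a1 higher in IDH1_R132H than in PDGFA tumours (adjusted p = 0.0481), against 2.22% of all genes. For IDH1_R132H over IDH1WT, Col4a1 had a log2 fold change of -0.38 (SE 0.31), Lamc1 of -0.22 (SE 0.23) and Hspg2 of -0.28 (SE 0.34). With a median standard error of 0.286 on that comparison, differences of the mutant from the wild-type group in these genes were not detectable here, which does not show them equal.

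Some vessel markers rose in the tumours too. Of 15 endothelial markers 6 rose and none fell, against 3.71% and 1.5% of all genes. Vwf, the clotting factor stored in endothelium, averaged 64.0 ± 15.5 CPM in tumours and 20.7 ± 3.31 CPM in normal brain, and Kdr, the VEGF receptor, averaged 30.2 ± 5.98 CPM in tumours and 12.9 ± 0.685 CPM in normal brain (SD, n = 9 and 3). Others had values near or below 0, such as Slco1a4, a transporter of brain endothelium (log2 fold change -0.40, edgeR adjusted p = 0.163), Ly6c1 (-0.42, edgeR adjusted p = 0.287), Podxl (-0.04) and Tek (-0.02). The median log2 fold change of the list was 0.80, and its summed level was 284 to 448 CPM in tumours against 243 to 267 CPM in normal brain, higher in 9 of 9 tumours. Of 11 tested pericyte and smooth muscle markers, Rgs5 and Abcc9 rose, and the sum of all 12 was 188 to 449 CPM in tumours against 184 to 194 CPM in normal brain, higher in 7 of 9 tumours. The smooth muscle genes Myh11 (log2 fold change -0.38), Des (-0.12) and Acta2 (-0.09) were not called. None of the 11 fibroblast markers was called, and their sum was 55.6 to 270 CPM in tumours against 108 to 131.6 CPM in normal brain. Of 8 oligodendrocyte precursor markers 7 rose, the sum being 492 to 6209 CPM in tumours against 475 to 497 CPM in normal brain. No marker was at 0 in all libraries in any of these lists. None of 9 choroid plexus, 10 microglia or 9 neuron markers was called, and of 7 astrocyte markers Gfap rose.

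**Figure D5:**
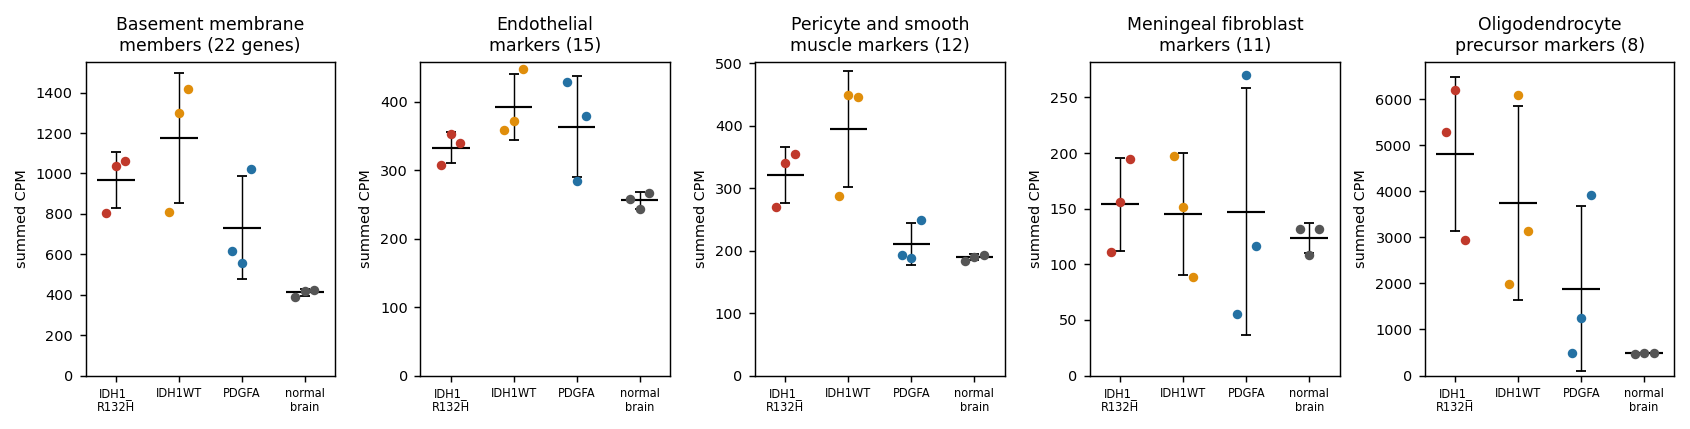
Summed CPM (y axes, from 0) of the 22 basement membrane members and of 4 lists of cell type markers in each library, with group means and SD bars (n = 3). The basement membrane sum is 556 to 1416 CPM in tumours against 390 to 425 CPM in normal brain, the endothelial sum is higher in all 9 tumours, and the fibroblast sum overlaps.

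The 11 risers other than Col8a1 were also divided by 3 of these sums. No uncalled member was divided, and for each of these risers all 9 tumours already lay above normal brain. The counts that follow are therefore not independent of the calls. Col4a1 divided by the endothelial sum was 0.291 to 0.986 in tumours and 0.202 to 0.243 in normal brain, higher in 9 of 9. Lama4 divided by it was 0.0621 to 0.246 in tumours and 0.0380 to 0.0546 in normal brain, and Nid2 0.0245 to 0.0902 in tumours and 0.0141 to 0.0158 in normal brain, again without overlap. Lamc1, Col4a2 and Hspg2 were above normal in 9 of 9 tumours, Lamc1 narrowly so (0.172 in the lowest tumour against 0.171 in the highest normal brain). Nid1, Col11a1 and Col5a3 were above it in 8 of 9, the exception being PDGFA tumour 1 each time, and Col16a1 in 7 of 9. Divided by the pericyte and smooth muscle sum, Col4a1, Col4a2, Lama4, Lamc1, Nid1, Nid2, Hspg2, Col11a1 and Col5a3 were above normal in 9 of 9 tumours and Col16a1 in 8 of 9. Divided by the oligodendrocyte precursor sum, Col4a1 was 0.0358 to 0.254 in tumours and 0.110 to 0.128 in normal brain, above it in 1 of 9, as were Col4a2, Lama4, Lamc1, Nid1, Hspg2 and Col16a1, while Nid2 was above it in 4 of 9, Col5a3 in 2 of 9 and Col11a1 in 3 of 9 (0.0267 to 0.0895 in tumours and 0.0294 to 0.0503 in normal brain). The part of cell makeup in the calls was not tested.

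Genes that make, bind or cut these proteins were taken from 5 lists, and their counts are read against the 3.71% of all genes that rose and the 1.5% that fell. These lists, like the cell type lists and the members, were chosen with earlier results of these data known. A share above that of all genes is therefore not independent evidence. Of 20 genes for collagen folding and modification, Plod1, a lysyl hydroxylase, rose (log2 fold change 1.12, SE 0.22, edgeR adjusted p = 0.0202) and P4ha2, a prolyl hydroxylase subunit, fell (-0.77, SE 0.16, edgeR adjusted p = 0.0213). The collagen chaperone Serpinh1 had a log2 fold change of 1.17 and P4hb of 0.72, with an edgeR adjusted p of 0.0608 for each. Of 14 tested genes for processing and cross-linking, the lysyl oxidases Loxl2 and Lox rose. Loxl2 averaged 8.93 ± 5.78 CPM in tumours and 0.808 ± 0.546 CPM in normal brain, which is 3.33 higher on the log2 scale (edgeR adjusted p = 0.0334, SE 0.78), and Lox had 1.68 (SE 0.45, edgeR adjusted p = 0.0495).

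Of 18 collagen and laminin receptor genes 5 rose and none fell, against 3.71% and 1.5% of all genes. They were the collagen-binding kinase Ddr1 (0.90, SE 0.13, edgeR adjusted p = 0.0108), the integrin chains Itgb1 (1.44, SE 0.33, 0.0295), Itgav (1.49, SE 0.36, 0.0374) and Itga1 (1.46, SE 0.39, 0.0494), and the laminin receptor dystroglycan, Dag1 (0.78, SE 0.20, 0.0405), with log2 fold changes first. Of 18 other matrix genes 3 rose, namely fibronectin (Fn1, log2 fold change 1.60), Smoc1 (1.58) and fibrillin 1 (Fbn1, 0.95), while Fbln5 had 0.84 (edgeR adjusted p = 0.0559). Of 19 tested proteases and inhibitors 5 rose, among them the membrane metalloproteinases Mmp15 (log2 fold change 3.51) and Mmp16 (1.44), the plasminogen activator Plat (0.91) and Adamts9 (1.74). Mmp15 averaged 205 ± 112 CPM in tumours and 16.8 ± 0.809 CPM in normal brain (SD, n = 9 and 3).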

How the data were processed

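The authors deposited unnormalised read counts of each gene in 12 libraries. Per the submitters' processing notes, the tools were DESeq2 1.16.1, featureCounts 1.5.1, Subread and STAR 2.5.2b, with the build GRCm38. Annotation, strand setting and treatment of multiply mapped reads: not given in the sources used here. A second deposited table holds rlog values, on a log2 scale, for 23792 genes, and served as an alternative only.

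Members and gene lists were chosen with earlier results of these data known. Counts were fitted in R 4.3.3 with edgeR 4.0.16 (filterByExpr with a minimum count of 10 and a minimum total of 15, TMM, robust quasi-likelihood, 1 coefficient per group), and p-values were adjusted over 17812 genes. TMM-scaled CPM are listed as levels, and CPM per kilobase uses the exon length in GENCODE M21. Chain ratios, log2 with a pseudocount of 0.5, were tested with exact permutation in scipy 1.17.1. The procedure was tested on simulated data, with 200 genes changed between tumours and normal brain. edgeR recovered 37.3% of 2-fold, 80.3% of 4-fold and 98.5% of 8-fold changes, with 4 false calls. DESeq2 recovered 58.2%, 89.4% and 98.5%, with 30 false calls, so genes called by DESeq2 alone are less certain. Alternatives used RLE scaling, DESeq2 1.42.0, limma 3.58.1, no filter and libraries left out. All values per library are given for 18 members fixed by name and for every called member, and lists are described mainly by their 4 smallest p-values. Slco1a4, Ly6c1, Podxl, Tek, Myh11, Des and Acta2 lie outside those 4 and were named as well, all with log2 fold changes below 0. Itga1, Mmp16, Gfap and the members called under an alternative alone were named after their values were seen, as was Col9a1. Some genes are not reported here.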

Additional observations from a re-analysis of the deposited data

How the results depend on the processing

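For tumours against normal brain, the 12 calls became 21 with no low count filter (5.19% of all genes called). Every fit with no filter tested 42503 genes, against 17812 in the main fit. For tumours against normal brain it called 2204 genes, against 929, so shares with no filter have another base. The 12 calls became 21 with voom sample weights (33.7% of all genes, near the members' share) and 0 to 14 with 1 library left out (0% to 13.5%). RLE scaling gave 12 (5.36% of all genes), DESeq2 17 (12.5%), limma on rlog values 11 (4.85%) and dropping rRNA-like genes 12 (5.41%). Leaving out IDH1_R132H tumour 3 with PDGFA tumour 1 gave 17 (15.7%). In IDH1_R132H tumours the 10 calls became 16 with no filter (5.81%), 25 with voom (41.1% of all genes, near the members' share) and 0 to 13 with a library left out (0% to 12.2%). In IDH1WT tumours the 10 became 17 with DESeq2 (6.88%), 20 with no filter (3.66%), 21 with voom (16.9%) and 0 to 15 with a library left out (0% to 5.79%). In PDGFA tumours the count of 0 became 1 with RLE scaling (0.393%), 11 with DESeq2 (2.45%), 11 with no filter (2.25%) and 7 with voom (2.45%). It became 11 without both libraries named above (5.19%), 1 without rRNA-like genes (0.409%) and 0 to 9 with a library left out (0% to 4.4%). Between tumour groups, no filter gave 1 for IDH1_R132H against IDH1WT (0.186% of all genes), 4 for IDH1_R132H against PDGFA (1.48%) and 5 for IDH1WT against PDGFA (0.614%). Voom gave 2 for IDH1_R132H against PDGFA (2.22% of all genes), and DESeq2 gave 1 for IDH1WT against PDGFA (0.0654%). With a library left out, the Lama4 to Lama5 difference was 2.12 to 2.41, that of Col4a1 to Col4a2 0.53 to 0.71, and that of Col1a1 to Col4a1 -1.49 to -0.96. On the deposited rlog scale, which is built to shrink differences, these were 1.39, 0.40 and -0.75, and the 11 risers had log2 fold changes of 0.52 to 1.62 and Lamb3 -0.40, against 0.95 to 2.73 and -1.11 from counts. Col1a2 turned negative, uncalled, at -0.011 with no filter and -0.035 on rlog values, and ranged over -0.24 to 0.41 with a library left out. The cause was not tested. No paired analysis was possible because the labels give no replicate numbers, those used here following the order of deposit. All comparisons with normal brain rest on 3 normal brains. The part of depth in the calls was not tested, and scarce members such as Lamb3, at 1.18 to 4.61 CPM, rest on few reads.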
